A study of Mus musculus with 12 samples.

Results

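Cultures of aged mouse HSPCs, the haematopoietic stem and progenitor cells that make all blood lineages in the marrow, that received uridine were compared with cultures that received vehicle, 3 libraries against 3, which are 6 of the 12 messenger RNA libraries of the series. All genes of the count table were taken. The vehicle libraries carry the strain label c57bl/6 WT, and the uridine libraries carry c57bl/7 WT, c57bl/8 WT and c57bl/9 WT. As reference levels, 3 libraries of uncultured young HSPCs (c57bl/10 WT, c57bl/11 WT and c57bl/12 WT) and 3 of uncultured aged HSPCs (c57bl/13 WT, c57bl/14 WT and c57bl/15 WT) were used. Because these strain names run up by 1 from sample to sample, the strain of each library is uncertain. All libraries came from bone marrow and are labelled wild type, and no allele or transgene is named. No age, sort, culture time, medium or uridine dose is given in the sources used here. Nothing in the labels tells whether replicates are separate animals or cultures. The spread that the p-values are based on is therefore only that of these samples and may be technical. The cultures came from aged cells and the young reference was not cultured, so a difference between them holds age and culture together and the 2 cannot be told apart.

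The pyrimidine nucleoside uridine enters cells through equilibrative and concentrative nucleoside transporters. Uridine-cytidine kinases phosphorylate it to UMP, from which UTP, CTP and the UDP-sugars are made, and uridine phosphorylase splits it to uracil. Cells can also build UMP from glutamine, bicarbonate and aspartate by the de novo pathway. HSPCs take part of their regulation from short-lived transcription factors, from interferons and from the cells around them in the marrow.

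Library totals ran from 16785065 to 19025802 counts, and 21250 to 21478 genes had a count in each vehicle library against 22324 to 22603 in each uridine library. Levels are given in CPM, the counts of a gene per 1000000 counts of its library after edgeR's TMM scaling. Unless another setting is named, an adjusted p comes from edgeR's quasi-likelihood test with Benjamini-Hochberg adjustment over all 16675 genes tested. Where a library was left out, or another method or control was used, the adjustment was over the genes of that fit. A gene is said to have risen or fallen where its adjusted p in the main fit was below 0.05. Genes that mark HSPCs were present in all 6 libraries. Kit, the stem cell factor receptor, was at 263, 263 and 260 CPM with vehicle and at 275, 270 and 277 CPM with uridine, a difference that did not pass (adjusted p = 0.071). Flt3, a cytokine receptor of early progenitors, rose from 98.5, 91.2 and 95.6 CPM to 121, 122 and 125 CPM, and the surface marker Cd34 fell from 405, 404 and 412 CPM to 358, 340 and 348 CPM. Ptprc, which encodes the leukocyte surface protein CD45, was at 402, 411 and 407 CPM and then at 381, 389 and 374 CPM, a fall that did not pass without uridine replicate 3 (adjusted p = 0.0618). Thus the label of blood progenitors was met by these defining markers, together with transcripts of other marrow cells described with the lineages.

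In 50.0% of all genes tested the 3 uridine libraries did not overlap the 3 vehicle libraries, a share against which each statement on overlap is to be read. Each gene's uridine level was then placed against the vehicle and the young levels. Over all genes tested, 38.1% passed in either direction, 20.0% rose and 18.1% fell with uridine, and 6.32% rose and 0.708% fell by at least 2-fold. A gene was counted as lying between when the uridine libraries differed from the vehicle libraries in one direction and from the young libraries in the other, each by the test, and 25.3% of the genes tested did so. A further 10.9% differed from vehicle without passing against young, 22.1% differed from young without passing against vehicle, 0.804% lay above both and 1.18% lay below both. The counts given for each gene list are to be read against these shares. Both comparisons use the same uridine libraries, so the placement is given as a count and no relation between the comparisons was tested.

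For genes at least 2-fold apart between young and vehicle, the position of the uridine mean was computed on the CPM scale, with 0 at the vehicle mean and 1 at the young mean. There were 4137 such genes, the uridine mean lay between the other means in 3950 of them (95.48%), and the median position was 0.3816. Among 86 genes that belong to no gene list and whose young mean was at least 10 times the vehicle mean, the median position was 0.3398, with quartiles at 0.3122 and 0.375, and 78 of them lay within 0.1 of that median. The 3 uridine libraries gave 0.3434, 0.3325 and 0.3434 when taken alone. In the other direction, 129 genes whose young mean was at least 10 times below the vehicle mean had a median position of 0.4192, with quartiles at 0.3453 and 0.4678. Measured against a level set 0.3398 of the way from vehicle to young, 10600 of 10860 genes with at least 5 CPM (97.64%) had a uridine mean within 1.25-fold, whereas 8536 (78.61%) were within 1.25-fold of the vehicle mean. Of the 1686 genes among them that were at least 2-fold apart between young and vehicle, 1559 (92.47%) were within 1.25-fold of that set level and 253 (15.01%) were within 1.25-fold of the vehicle mean. These figures describe the placement and carry no test, because the genes were picked by their vehicle and young levels. Genes of many kinds lay near the same position, as the plot of positions by gene list shows, and they included markers with no count in any vehicle library. The origin of the uridine libraries could not be checked beyond their labels, and whether they hold RNA like that of the young libraries was not tested. Every difference between uridine and vehicle is given with that limit.

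The uridine libraries were also tested against control counts set at that level, each made from the vehicle and the young library of the same number. Against these, 529 genes were higher and 739 lower with uridine of 16532 tested. Over all genes, 15264 of 16532 did not pass, a share against which the counts of each list are to be read. By that test 19 of 20 late neutrophil, 27 of 28 erythroid, 19 of 21 B-lineage, 18 of 21 stromal and 24 of 25 cholesterol synthesis genes did not pass. Of the 34 interferon-stimulated genes 13 were still lower, as were 10 of 17 MHC class I genes, 8 of 27 monocyte and macrophage genes, 25 of 80 nuclear oxidative phosphorylation genes, 77 of 213 immunoglobulin genes and 69 of 82 cytosolic ribosomal protein genes. The median log2 difference from that control was -0.17 for the stromal list and -0.13 for the interferon-stimulated list, so a count that did not pass does not place a list at the set level. The set level takes its position from these same libraries, so these counts describe where genes depart from it and are no independent test. Each control also blends a vehicle and a young library, so the spread of the controls is not that of replicates.

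**Figure D1:**
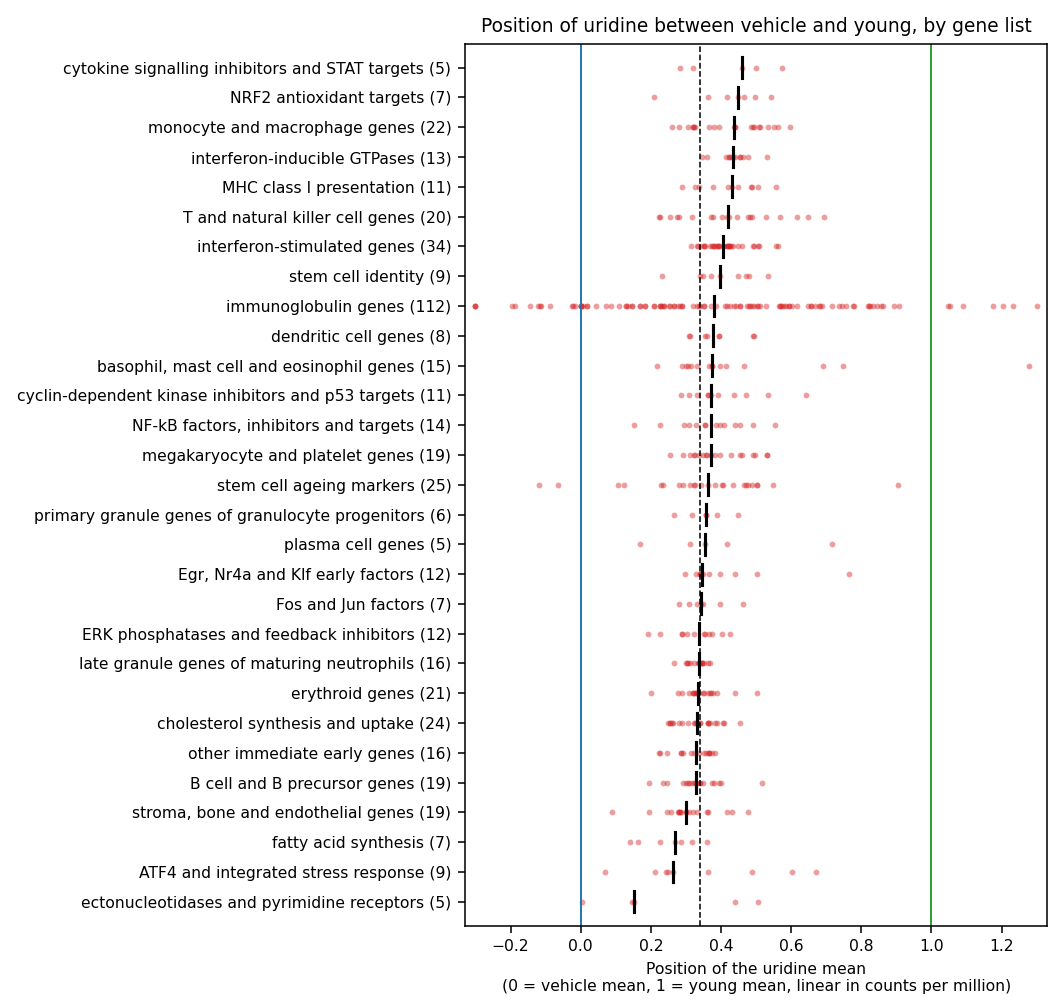
Position of the uridine mean between the vehicle mean (0, blue line) and the young mean (1, green line) for the members of each gene list that were at least 2-fold apart between young and vehicle, with 1 point for each gene, the number of genes in brackets and a black tick at the list's median. Most list medians lie near the dashed line at 0.3398, the interferon-stimulated, MHC class I and monocyte medians lie at 0.407 to 0.437, and 4 immunoglobulin genes beyond the axis are drawn at its edges.

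Most transcripts of late neutrophils, of the erythroid and B lineages and of marrow stroma rose along with these placements. Their levels are therefore given here, ahead of the other gene groups. Monocyte and macrophage genes fell in 18 of 27 cases and megakaryocyte genes in 20 of 25, as described with the lineages. All these counts are to be read against the 20.0% that rose and the 18.1% that fell over all genes tested. Of 20 late neutrophil granule and surface genes 16 rose and 2 fell. Their summed level went from 506 to 517.1 CPM with vehicle to 2462 to 2527 CPM with uridine, against 6355 to 6547 CPM in the young libraries. Of 28 erythroid genes 23 rose and 1 fell, and their sum went from 631.2 to 658.4 CPM to 987 to 999.1 CPM, against 1706 to 1720 CPM. Of 21 B-lineage genes 18 rose and 1 fell, and their sum went from 139.3 to 143.8 CPM to 432.1 to 443.7 CPM, against 1072 to 1088 CPM. Of 21 stromal and endothelial genes 14 rose and 4 fell, and their sum went from 148.6 to 152.9 CPM to 267 to 276.4 CPM, against 611.3 to 640.5 CPM. Defining markers with no count in any vehicle library were Ly6g of neutrophils, Slc4a1 and Rhag of the erythroid series, and Col3a1, Pdgfra, Ibsp and Dcn of stroma. In bulk libraries, fewer cells of a type and less RNA per cell cannot be told apart, and the part of these cells in the differences described for the other gene groups was not tested.

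Most immediate-early response genes rose with uridine. They encode short-lived transcription factors and feedback proteins that cells induce within minutes of a stimulus or of handling. All 7 Fos and Jun family genes rose, all 7 lay between vehicle and young, and their median log2 change was 1.98 against a median of -0.00106 over all genes tested. Their summed level was 384.3 to 400 CPM with vehicle, 2608 to 2618 CPM with uridine, 7294 to 7318 CPM in young and 10110 to 10200 CPM in uncultured aged libraries. Fosb, on chromosome 7 from 19302696 to 19310051 (GRCm38, minus strand), encodes an AP-1 subunit and stood at 30.8, 31.9 and 33.5 CPM with vehicle and at 924, 945 and 931 CPM with uridine. The groups did not overlap, the young mean was 2650 CPM ± 26.9 (SD, n = 3), and the log2 change was 4.86 with a standard error of 0.027 (adjusted p = 1.1e-48). Fos was at 63.5, 57.1 and 61.9 CPM and then at 465, 480 and 472 CPM, a log2 change of 2.96, and Jun, its dimer partner, went from 85.7, 94.4 and 86.1 CPM to 668, 654 and 660 CPM, a log2 change of 2.90. For both genes every uridine library lay above every vehicle library and below the young means of 1535 CPM for Fos and 1939 CPM for Jun. Junb rose from 121, 124 and 115 CPM to 281, 283 and 282 CPM, and Jund and Fosl2, further subunits of AP-1, rose by 1.98 and 0.95.

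Of 13 Egr, Nr4a and Kruppel-like factor genes tested, 12 rose and 1 fell, with a median log2 change of 1.62, and 12 lay between vehicle and young. Nr4a1, an orphan nuclear receptor, was at 6.89, 7.42 and 7.96 CPM with vehicle and at 169, 165 and 164 CPM with uridine, against a young mean of 469 CPM. Klf2, a zinc finger factor of quiescent blood cells and endothelium, went from 14.5, 17 and 11.8 CPM to 180, 177 and 171 CPM, against a young mean of 557 CPM. In both genes the uridine libraries lay far above the vehicle libraries without reaching the young level, at positions of 0.343 and 0.297. Egr1, Egr2 and Egr3, zinc finger factors of the same response, rose by 2.04, 1.20 and 2.09 on the log2 scale, and Klf4 and Klf6 by 2.01 and 1.62. The member that fell was Myc, the growth regulator, which was at 259, 264 and 260 CPM with vehicle and at 234, 216 and 233 CPM with uridine, between vehicle and the young mean of 204 CPM. Nr4a3 rose by 1.17 but did not differ from young by the test (adjusted p = 0.26).

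Other immediate-early genes include RNA-decay factors, kinases and growth-arrest genes, and 18 of 21 rose, with a median log2 change of 1.01. The 18 lay between vehicle and young, and the summed level was 1513 to 1547 CPM with vehicle, 2776 to 2798 CPM with uridine and 5438 to 5508 CPM in young libraries. Zfp36, which encodes the mRNA-destabilising protein tristetraprolin, stood at 91.5, 93.1 and 93.7 CPM and then at 334, 346 and 339 CPM, a log2 change of 1.87. Btg2, an antiproliferative gene, rose from 41.5, 42.4 and 41.2 CPM to 96.3, 93.6 and 87.8 CPM, a log2 change of 1.15. Ppp1r15a, a stress-induced phosphatase subunit, rose from 34, 28 and 30.4 CPM to 98.6, 96.5 and 97.4 CPM, a log2 change of 1.66. None of these 3 genes had overlapping groups, and their young means of 935, 220 and 243 CPM lay above all uridine libraries. Per1, a clock gene that is also induced early, rose by 1.80 and Ier2 by 1.32, while Ccn1 and Gadd45g did not pass.

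**Figure D2:**
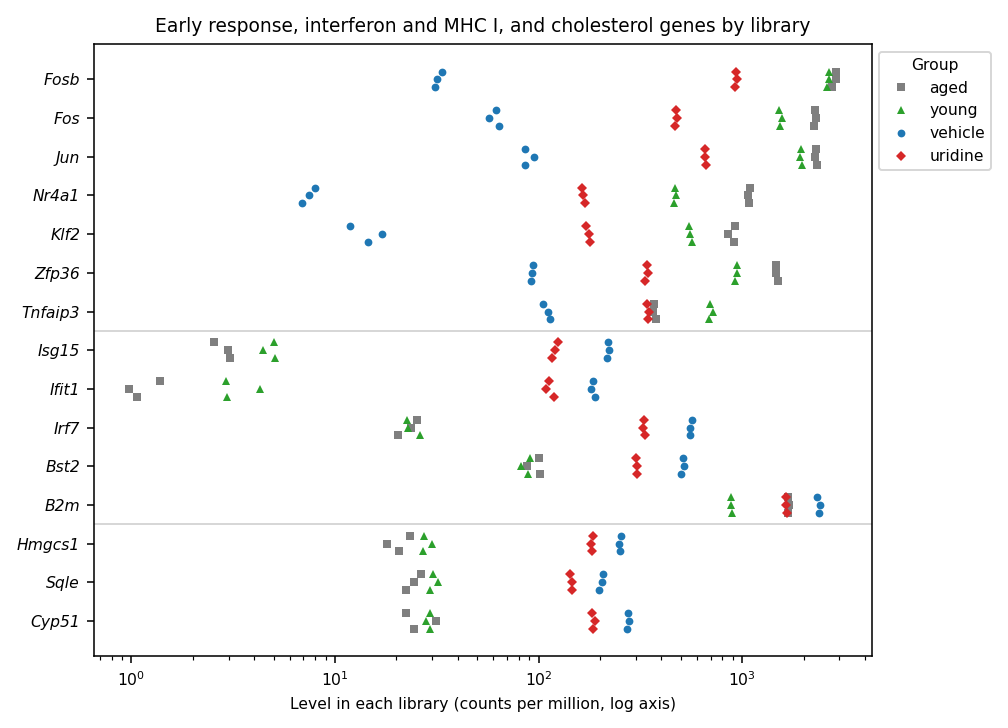
Level of early response, interferon and MHC class I, and cholesterol genes in every library, in CPM on a log axis, with 1 symbol for each library and the 4 groups in separate colours. In every gene shown the 3 red uridine symbols lie between the blue vehicle and the green young symbols, for example at 924 to 945 CPM for Fosb, and the 2 cultured groups do not overlap.

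Promoters were available for 29 of the early response genes that rose, from RefSeq (GRCm38.p6), and their 250 bases before the start were searched on both strands. The cyclic AMP response element TGACGTCA was present in 4 of the 29 genes (13.8%), namely Btg2, Maff, Plk2 and Ppp1r15a, against 1.548% of all 32817 promoters of that length and 2.92% of tested genes with a promoter. The rise of Plk2 was small (log2 change 0.17) and did not pass without vehicle replicate 2, vehicle replicate 3 or uridine replicate 1 (adjusted p = 0.0581, 0.0584 and 0.139). The AP-1 element TGANTCA was found in 2 (6.9%, Csrnp1 and Zfp36l1) against 6.753% of all promoters and 5.69% of tested genes. The serum response CArG box was found in 2 (6.9%, Egr2 and Zfp36) against 1.469% and 1.36%. A match is a description of the letters in this window and not evidence of a bound site. The promoters of Btg2 (chr1:134079156-134079405, minus strand) and Ppp1r15a (chr7:45526269-45526518, minus strand) are shown because they hold the full element, in capitals, 166 to 159 and 12 to 5 bases before the start.
Btg2: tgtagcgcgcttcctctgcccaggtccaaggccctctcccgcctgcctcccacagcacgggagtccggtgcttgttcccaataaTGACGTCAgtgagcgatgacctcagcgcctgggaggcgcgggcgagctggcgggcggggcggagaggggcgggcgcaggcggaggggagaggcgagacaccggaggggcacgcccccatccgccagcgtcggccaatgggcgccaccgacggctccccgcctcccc
Ppp1r15a: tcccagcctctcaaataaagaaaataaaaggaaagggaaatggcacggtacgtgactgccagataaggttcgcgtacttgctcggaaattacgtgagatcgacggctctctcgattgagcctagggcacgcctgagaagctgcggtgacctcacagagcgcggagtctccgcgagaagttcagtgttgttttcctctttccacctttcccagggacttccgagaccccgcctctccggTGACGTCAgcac

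Genes that the ERK kinase pathway induces and that feed back on it moved in both directions. Of 16 tested, 8 rose and 4 fell, all 12 lay between vehicle and young, and the median log2 change was 0.38. Dusp1, a phosphatase that shuts off MAP kinases, rose from 37.2, 39.7 and 39 CPM to 186, 191 and 188 CPM, against a young mean of 560 CPM and with no overlap between groups. Dusp2, Dusp5 and Dusp6 rose by 1.31, 1.51 and 0.77, and the receptor-signal inhibitors Spry1 and Spry2 by 1.43 and 1.11 on the log2 scale. Dusp4, a further phosphatase of the family, and Spred1, an inhibitor of RAS signalling, fell by 0.50 and 0.18 on that scale. The count of members that fell was 2 without vehicle replicate 2 and 2 without uridine replicate 1.

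Genes of NF-kB factors, inhibitors and targets were likewise mixed, with 8 higher, 9 lower and 5 not passing among 22. Their median log2 change was -0.03, and 16 members lay between vehicle and young. Tnfaip3, the deubiquitinase A20 that ends NF-kB signalling, rose from 113, 112 and 105 CPM to 346, 348 and 339 CPM, against 699 CPM in young libraries. Its uridine libraries lay apart from both groups, as did those of Nfkbiz, a nuclear IkB protein that rose by 1.76. Nfkbia, which encodes IkB-alpha, rose by 0.68. Traf1, an adaptor of TNF receptors, fell by 0.81, and the adhesion gene Icam1 and the subunit gene Relb fell by 0.54 and 0.46. Of 12 genes of JAK-STAT feedback and targets, 5 rose, 4 fell and 8 lay between. Osm, the cytokine oncostatin M, went from 12.2, 13.3 and 16.7 CPM to 49.7, 47.4 and 44.6 CPM, against a young mean of 131 CPM. Socs3, a brake on cytokine receptors, rose by 0.91, and Socs1 and the kinase gene Pim2 fell by 0.58 and 0.68.

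Interferon-stimulated genes, which cells turn on to resist viruses, were lower throughout. All 34 tested fell with uridine and all 34 lay between vehicle and young, with a median log2 change of -0.67. The summed level was 7905 to 7924 CPM with vehicle, 5049 to 5086 CPM with uridine, 775.8 to 795.3 CPM in young and 630.2 to 644.2 CPM in uncultured aged libraries. Isg15, a ubiquitin-like protein that is conjugated to other proteins after interferon, is on chromosome 4 from 156199424 to 156200818 on the minus strand and stood at 217, 221 and 219 CPM with vehicle and at 117, 120 and 124 CPM with uridine. Its young mean was 4.84 CPM ± 0.349 (SD, n = 3), the log2 change was -0.86 (adjusted p = 6.2e-20), and the position was 0.461. Irf7, the factor that amplifies type I interferon, went from 554, 553 and 568 CPM to 333, 327 and 328 CPM, and Bst2, the membrane protein tetherin, from 502, 518 and 511 CPM to 304, 304 and 300 CPM. Ifit1, which binds foreign RNA, went from 188, 181 and 185 CPM to 119, 108 and 113 CPM. In each of these genes every uridine library was below every vehicle library and far above the young means of 23.9 CPM for Irf7, 87.1 CPM for Bst2 and 3.37 CPM for Ifit1. Stat2, a factor that carries the interferon signal to the nucleus, fell by 0.51.

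The core of the interferon response element, GAAA followed after any 2 bases by GAAA, was present in the 250 bases before the start of 12 of 24 interferon-stimulated genes that fell and had a RefSeq promoter, against 2.968% of all promoters and 3.39% of tested genes. Isg15 (chr4:156200819-156201068, minus strand) holds 3 overlapping matches 78 to 57 bases before the start and Bst2 (chr8:71537473-71537722, minus strand) holds 2 overlapping matches 130 to 115 bases before it, shown in capitals because these 2 genes carry the fall described above. The search covered both strands. All 34 tested genes of this list fell, and the list was written as interferon-stimulated genes. The share with a match therefore describes the list and not the change with uridine.
Isg15: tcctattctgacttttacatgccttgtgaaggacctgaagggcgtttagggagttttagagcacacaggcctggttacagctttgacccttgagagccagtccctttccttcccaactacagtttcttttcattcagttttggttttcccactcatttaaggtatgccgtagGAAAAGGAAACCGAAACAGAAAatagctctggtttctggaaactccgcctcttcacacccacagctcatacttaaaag
Bst2: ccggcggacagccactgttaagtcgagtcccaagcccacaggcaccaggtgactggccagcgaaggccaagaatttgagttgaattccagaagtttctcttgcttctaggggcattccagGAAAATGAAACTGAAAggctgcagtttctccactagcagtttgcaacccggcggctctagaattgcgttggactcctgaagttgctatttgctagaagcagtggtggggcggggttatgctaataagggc

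The interferon-induced GTPases, which act against intracellular pathogens, fell in 14 of 15 cases with a median log2 change of -0.70, and the 14 lay between vehicle and young. Irgm1 went from 270, 278 and 270 CPM to 163, 168 and 161 CPM, and Iigp1 from 208, 199 and 207 CPM to 120, 114 and 118 CPM. The young means were 32.9 CPM and 3.81 CPM, so both genes remained well above the young level. Gbp2 fell by 0.92, and Gbp8 was the member that did not pass (adjusted p = 0.88). All 17 genes of MHC class I antigen presentation fell and lay between, with a median log2 change of -0.41 and sums of 12260 to 12310 CPM with vehicle, 9072 to 9173 CPM with uridine and 5229 to 5298 CPM in young libraries. B2m, the invariant light chain of class I molecules, went from 2386, 2410 and 2343 CPM to 1656, 1639 and 1646 CPM, at a position of 0.489. H2-K1 and H2-D1, the class I heavy chains, both fell by 0.40, and Nlrc5, the transactivator of class I genes, fell by 0.30. The uncultured aged sum for class I, 9301 to 9517 CPM, lay above the uridine sum.

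Cholesterol synthesis genes fell in 24 of 25 cases, the 24 lay between vehicle and young, and the median log2 change was -0.46. Their sum was 3602 to 3635 CPM with vehicle, 2727 to 2748 CPM with uridine, 836.4 to 853.2 CPM in young and 793.4 to 829.4 CPM in uncultured aged libraries. Hmgcs1, the cytosolic HMG-CoA synthase, stood at 250, 249 and 253 CPM and then at 184, 181 and 185 CPM, against 28.1 CPM in young, a log2 change of -0.46 (adjusted p = 7e-12) at a position of 0.305. Cyp51, a sterol demethylase, went from 271, 279 and 273 CPM to 185, 190 and 182 CPM, and Sqle, the squalene epoxidase, from 198, 205 and 208 CPM to 146, 146 and 143 CPM. No uridine library of these genes overlapped a vehicle library. Srebf2, the sterol-sensing factor that drives the pathway, fell by 0.26.

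A sterol element searched as TCACNCCAC on both strands was found in the 250 bases before the start of 1 of 17 cholesterol genes with a RefSeq promoter (5.9%). The share was 1.054% of all promoters and 1.27% of tested genes with a promoter. That gene was Hmgcs1 (chr13:119690101-119690350, plus strand), shown because its change is given above, with the match in capitals 137 to 129 bases before the start.
Hmgcs1: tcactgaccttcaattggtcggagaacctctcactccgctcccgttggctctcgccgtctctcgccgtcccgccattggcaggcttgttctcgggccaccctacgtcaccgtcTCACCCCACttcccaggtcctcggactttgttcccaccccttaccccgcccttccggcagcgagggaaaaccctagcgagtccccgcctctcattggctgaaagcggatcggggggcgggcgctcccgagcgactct

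Fatty acid synthesis and desaturation genes were less uniform, with 9 of 15 lower, 6 not passing and 9 between vehicle and young (median log2 change -0.16). Fads1 and Fads2, desaturases of polyunsaturated fatty acids, both fell by 0.37, and Elovl1, an elongase, by 0.39. Fasn, the fatty acid synthase, was at 526, 537 and 536 CPM with vehicle and at 522, 525 and 538 CPM with uridine (adjusted p = 0.73). Those groups overlapped, although the young mean was 332 CPM.

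Among the blood lineages, the maturing neutrophil genes were placed at a median position of 0.337. Ltf, the granule protein lactoferrin, stood at 10.9, 9.39 and 8.3 CPM with vehicle and at 356, 337 and 360 CPM with uridine, and Ngp, another granule protein, went from 30.6, 30.4 and 34.7 CPM to 566, 554 and 561 CPM. Uridine libraries were far above vehicle and below the young means of 1024 CPM and 1602 CPM. Ly6g, the neutrophil surface marker, was absent from the counts with vehicle and at least 68.4-fold higher in the uridine libraries, with a floor of 3 counts over the group. The metalloprotease gene Mmp8 and the deiminase gene Padi4 fell by 0.27 and 0.23. Primary granule genes, which promyelocytes make, rose in 9 of 16 cases and fell in 4, with 12 between. Mpo, myeloperoxidase, rose from 2207, 2119 and 2186 CPM to 3557, 3526 and 3550 CPM, against 6020 CPM in young libraries, and the granule proteases Elane and Prtn3 rose by 0.62 and 0.60.

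In the erythroid list, 24 of 28 members lay between vehicle and young and the median log2 change was 3.33. Car1, a carbonic anhydrase of red cells, was at 0.105, 0.22 and 0.169 CPM with vehicle, at 41.6, 39.6 and 40.1 CPM with uridine and at a mean of 121 CPM in young libraries. Slc4a1, the band 3 anion exchanger, had no count with vehicle and stood at 25.2, 24.6 and 22.8 CPM in the uridine libraries, which made it at least 443-fold higher with the same floor. Rhag was likewise at 0 with vehicle and at least 163-fold higher. Ermap, a red cell adhesion protein, had 2 counts over the vehicle libraries and 1711 over the uridine libraries, a ratio of 784 (95% counting interval 217 to 6476, for counting error only). Klf1, the erythroid master regulator, rose by 3.40, Gfi1b fell by 0.61, and Gata1 did not pass (adjusted p = 0.1).

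Megakaryocyte genes ran the other way, with 20 of 25 lower, 5 not passing and all 20 between (median log2 change -0.47). Pf4, the platelet chemokine, went from 343, 336 and 332 CPM to 196, 192 and 185 CPM, against 16.4 CPM in young libraries. Itgb3, a platelet integrin subunit, went from 382, 382 and 378 CPM to 268, 272 and 270 CPM, against 36.9 CPM. Uridine and vehicle libraries did not overlap in either gene. In the list of basophil, mast cell and eosinophil genes, 12 of 20 rose and 4 fell, with 14 between. The share that fell was near the 18.1% over all genes tested. Prss34, a basophil protease, rose from 113, 111 and 102 CPM to 281, 290 and 287 CPM, and Hdc, which makes histamine, rose by 1.41. Gzmb, a serine protease of mast and killer cells, fell by 1.22, and Cpa3, the mast cell carboxypeptidase, by 0.35.

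Monocyte and macrophage genes fell in 18 of 27 cases and rose in 6, with 23 between vehicle and young and a median position of 0.437. Gpnmb, a glycoprotein of lipid-laden macrophages, stood at 584, 586 and 560 CPM with vehicle, at 297, 287 and 290 CPM with uridine and at 0.392 CPM ± 0.0796 (SD, n = 3) in young libraries, a log2 change of -0.99 (adjusted p = 5.3e-25). Lyz2, lysozyme, went from 2784, 2777 and 2743 CPM to 1775, 1779 and 1824 CPM, at a position of 0.55. Both genes were lower in every uridine library. Irf8, the factor of monocyte and dendritic cell fate, rose by 0.55, and Apoe by 1.80. Among 14 dendritic cell genes 6 rose, 3 fell and 8 lay between. The share that fell was near the 18.1% over all genes tested. Siglech, of plasmacytoid cells, rose by 0.88, and the integrin gene Itgax by 1.65.

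B-lineage genes lay between vehicle and young in 17 of 21 cases at a median position of 0.328. The member that fell was Il7r, the most abundant of the list in the cultures, and it lay below both vehicle and young. The factors Pax5 and Ebf1, which commit cells to the lineage, rose by 3.88 and 4.88, and the surrogate light chain genes Igll1 and Vpreb1 by 5.18 and 5.10. Vpreb2, a further surrogate light chain gene, had 2 counts with vehicle, and the ratio of its counts was 137 (95% counting interval 37.7 to 1140). The stromal gene Col1a1, which encodes a chain of type I collagen, went from 0.263, 0.275 and 0.169 CPM to 75.8, 79.7 and 74.5 CPM, against 272 CPM in young and a mean of 0.96 CPM in uncultured aged libraries. Kdr, the endothelial VEGF receptor, fell by 0.72. T and NK cell genes lay between vehicle and young in 13 of 24 cases. They rose in 15 cases and fell in 2 by the test, while their summed level was lower with uridine, 143.4 to 151.6 CPM against 170 to 182 CPM with vehicle. Ccl5, a chemokine of these cells, was one of those that fell, by 0.71.

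**Figure D3:**
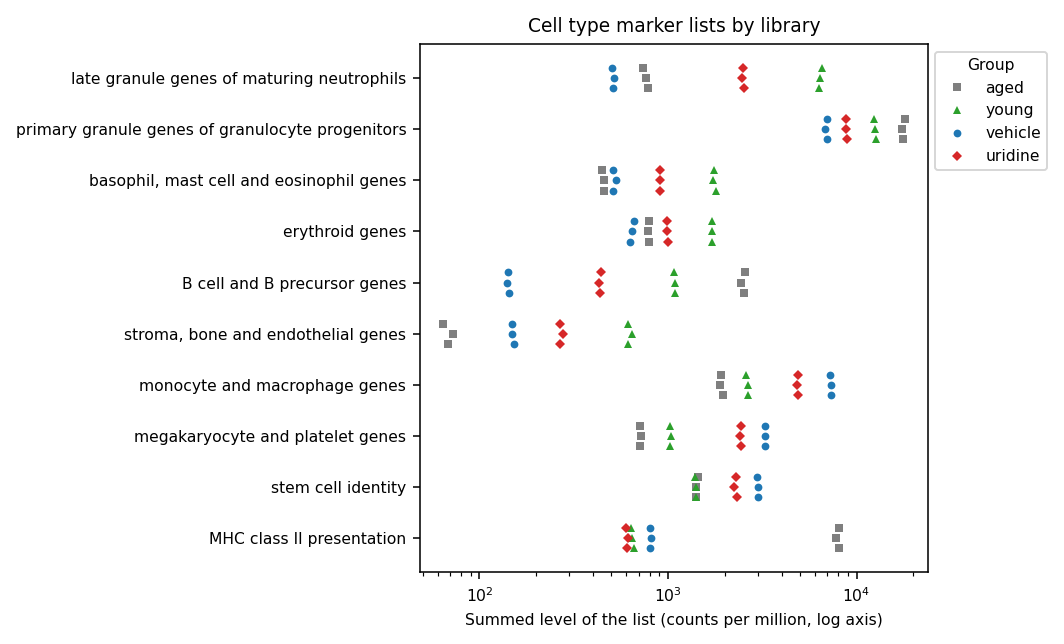
Summed level of each cell type marker list in every library, in CPM on a log axis, with 1 symbol for each library and the 4 groups in separate colours. The uridine sums lie between the vehicle and the young sums in each list shown except MHC class II, where the uridine sums of 601.9 to 610.5 CPM lie below both.

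Immunoglobulin, plasma cell and MHC class II genes kept a different order, since they were far more abundant in uncultured aged libraries than elsewhere. Immunoglobulin genes took 0.9217% to 0.9245% of the counts with vehicle, 0.6005% to 0.6148% with uridine, 0.5396% to 0.5442% in young and 21.59% to 21.93% in uncultured aged libraries. Of 214 immunoglobulin genes 79 fell, 31 rose and 63 lay between, against 18.1%, 20.0% and 25.3% over all genes tested. Igha, the IgA heavy chain, went from 3483, 3527 and 3474 CPM to 2035, 1953 and 1992 CPM, and Jchain, which joins IgA and IgM units, from 796, 786 and 761 CPM to 450, 436 and 431 CPM. Their young means were 964 CPM and 303 CPM, so both lay between, at positions of 0.593 and 0.715. Of 14 plasma cell genes tested 6 fell, 3 rose, 5 did not pass and 6 lay between. Those that rose were Pou2af1, Irf4 and Mzb1, whereas Sdc1, the plasma cell syndecan, fell by 0.34 and lay below all 3 other groups. Of 11 MHC class II genes 7 fell and 2 rose, or 1 without uridine replicate 1, and 3 lay between vehicle and young. H2-Ab1, a class II beta chain, stood at 111, 113 and 111 CPM with vehicle and at 91.5, 92.6 and 88.7 CPM with uridine, below the young mean of 108 CPM ± 4.19 (SD, n = 3) and the aged mean of 1125 CPM. Class II genes below all 3 other groups numbered 4. Cd74, the invariant chain, went from 395, 394 and 398 CPM to 266, 270 and 275 CPM and remained above the young mean of 245 CPM.

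Stem cell identity genes fell more often than they rose, with 13 lower, 3 higher and 12 not passing among 28, a median log2 change of -0.17 and 14 between vehicle and young. The summed level was 2974 to 2999 CPM with vehicle, 2229 to 2310 CPM with uridine and 1391 to 1409 CPM in young libraries. Procr, the endothelial protein C receptor used to sort long-term stem cells, was at 18.3, 18.3 and 18 CPM and then at 11.1, 9.41 and 9.6 CPM, against a young mean of 2.88 CPM (log2 change -0.86, adjusted p = 2.2e-07). Ly6a, which encodes the surface marker Sca-1 and is also induced by interferon, went from 458, 465 and 441 CPM to 265, 250 and 261 CPM, against 17.8 CPM in young and 247 CPM in uncultured aged libraries. Ifitm3, an antiviral membrane protein, went from 841, 844 and 833 CPM to 487, 483 and 479 CPM. In these 3 genes all uridine libraries lay below all vehicle libraries and above the young means. Ifitm3 and Ly6a are both induced by interferon, and their falls make up most of the fall of the summed level. The transcription factor genes Mycn and Meis1 fell by 0.55 and 0.26, Esam, a cell adhesion gene, by 0.61, and Hlf rose by 0.27, whereas Mecom, Hoxa9 and Gata2 did not pass.

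Genes reported as markers of aged stem cells fell in 15 of 31 cases and rose in 4, with 17 between vehicle and young and a median log2 change of -0.43. Selp, the adhesion molecule P-selectin, went from 55.4, 50.6 and 53.3 CPM to 37.9, 40.2 and 37.2 CPM, against 6.2 CPM in young and 22.1 CPM in uncultured aged libraries. The uridine libraries of Selp were thus below vehicle and above both uncultured groups. Vwf, von Willebrand factor, fell by 0.47, and Clu, the chaperone clusterin, by 0.54. Log2 changes were -0.58 for Aldh1a1, an aldehyde dehydrogenase, and -0.75 for Slamf1, which encodes CD150. Mt1, a metallothionein, and Gpr183, an oxysterol receptor, both rose by 0.59. For the genes of this list the sums were close together, at 1427 to 1448 CPM with vehicle, 1342 to 1354 CPM with uridine and 1271 to 1296 CPM in young libraries, below the 2108 to 2123 CPM of uncultured aged libraries. Zfp36, an early response gene described above, is also in this list. It rose with uridine, was higher still in young libraries, and so offset much of the fall of the other members in these sums.

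The genes that handle uridine itself moved in both directions. Of 26 transport and salvage genes listed, 22 had enough counts to be tested, and 6 rose, 4 fell and 12 did not pass, against 20.0% higher and 18.1% lower over all genes tested, with a median log2 change of -0.01 and 8 between vehicle and young. The summed level was 1277 to 1294 CPM with vehicle, 1268 to 1289 CPM with uridine and 1298 to 1322 CPM in young libraries. Slc29a1, the main equilibrative nucleoside transporter, rose from 62.8, 65.8 and 64.4 CPM to 75.6, 74.7 and 77.8 CPM (log2 change 0.24, adjusted p = 2.7e-04). Slc28a2, a concentrative transporter, rose from 58, 63.8 and 62.4 CPM to 67.8, 67.8 and 71.2 CPM, by 0.17, which did not pass without vehicle replicate 1 (adjusted p = 0.0715). Every uridine library of both transporters lay above every vehicle library, and the young means of 106 CPM and 81.2 CPM were higher still. The concentrative transporters Slc28a1 and Slc28a3, cytidine deaminase (Cda) and uridine phosphorylase 2 (Upp2) had too few counts to be tested.

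Uridine phosphorylase 1, Upp1, on chromosome 11 from 9118103 to 9136170 (plus strand), was at 7.68, 6.76 and 9.04 CPM with vehicle and at 3.55, 4.35 and 3.98 CPM with uridine. The groups did not overlap, the young mean was 0.776 CPM ± 0.546 (SD, n = 3), and the log2 change was -0.98 with a standard error of 0.226 (adjusted p = 6.4e-04). Uck1, a uridine-cytidine kinase, rose from 39.1, 39.4 and 38.4 CPM to 47.6, 48.6 and 50.6 CPM, a log2 change of 0.33, and lay below the young mean of 59.3 CPM. Uck2, the other kinase of that step, rose from 232, 230 and 235 CPM to 262, 266 and 258 CPM, a log2 change of 0.17, and did not differ from the young mean of 271 CPM by the test (adjusted p = 0.15). Thymidine kinase 1 (Tk1) rose by 0.20, the nucleotidase gene Nt5c3 fell by 0.44 and deoxycytidine kinase (Dck) fell by 0.19.

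In the de novo pathway, 2 of 13 genes rose, 1 fell and 10 did not pass, and 3 lay between vehicle and young. The shares that rose and fell were below the 20.0% and 18.1% over all genes tested. Cad, on chromosome 5 from 31054780 to 31078479 (plus strand), encodes the enzyme of the opening steps and rose from 240, 243 and 240 CPM to 307, 296 and 291 CPM, against 338 CPM in young and 202 CPM in uncultured aged libraries (log2 change 0.31, adjusted p = 4.6e-11). Rrm1, the large subunit of ribonucleotide reductase, rose by 0.10 and Shmt2, the mitochondrial serine hydroxymethyltransferase, fell by 0.10. Dhodh and Umps, which complete UMP, Ctps, which makes CTP, and Tyms, which makes thymidylate, did not pass. Samhd1, which degrades deoxynucleotides and is induced by interferon, fell from 424, 417 and 411 CPM to 315, 310 and 311 CPM, at a position of 0.396. Upb1, the last enzyme of pyrimidine breakdown, stood at 0.105, 0 and 0.113 CPM with vehicle and at 1.23, 1.79 and 0.895 CPM with uridine, against 3.74 CPM in young libraries.

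Genes of UDP-sugar and glycosylation metabolism, which draw on UTP, rose in 3 of 15 cases and fell in 2, with 4 between. These shares were near or below the 20.0% and 18.1% over all genes tested, and the count that fell was 1 without vehicle replicate 1 or 2 or uridine replicate 1 or 2. Uap1l1, a UDP-N-acetylglucosamine pyrophosphorylase-like gene, fell from 121, 120 and 120 CPM to 78.9, 76.2 and 80 CPM, at a position of 0.537. Uggt1, the glucosyltransferase of glycoprotein quality control, rose by 0.17, and Ogt, Ugdh and Ugp2 did not pass. Of 8 ectonucleotidase and pyrimidine receptor genes tested, P2ry14, the receptor for UDP-glucose, fell from 33.1, 39.4 and 31.7 CPM to 23.7, 22.4 and 19.7 CPM (adjusted p = 8.9e-07) and Entpd5, an endoplasmic reticulum nucleotidase, rose by 0.27. In that list 1 gene rose, 1 fell and 2 lay between, and the shares that rose and fell were below the same 20.0% and 18.1%. The count that rose was 2 without any 1 vehicle library and without uridine replicate 1 or 3. P2ry2, a receptor for UTP, was at 21.3, 22.7 and 22.3 CPM with vehicle and at 22.5, 22.3 and 21.5 CPM with uridine (adjusted p = 0.99). Those libraries overlapped fully, although the young mean was 10.4 CPM.

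**Figure D4:**
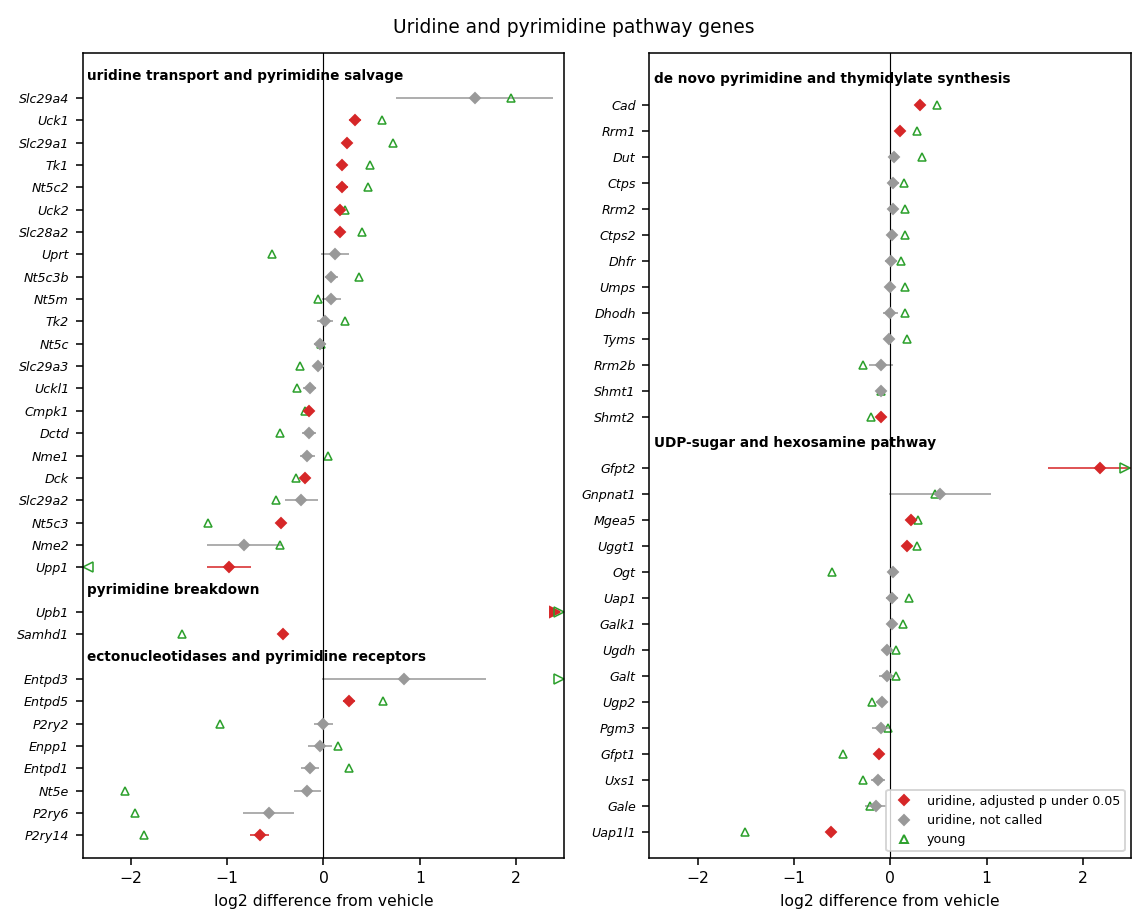
Log2 difference of uridine from vehicle for the tested genes of 5 uridine and pyrimidine lists (diamonds, with the standard error as a bar), red where the adjusted p was below 0.05 and grey where it was not, with the young difference from vehicle as open green triangles. Most diamonds lie near 0, Upp1 lies at -0.98, and arrows at the edges mark values beyond 2.4, among them Upb1.

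Cell cycle genes rose in part. Of 30 S-phase genes 19 rose and 1 fell, 18 lay between vehicle and young, and the median log2 change was 0.15. The summed level was 4322 to 4376 CPM with vehicle, 4963 to 4969 CPM with uridine, 6107 to 6161 CPM in young and 3336 to 3433 CPM in uncultured aged libraries. Mcm5, a subunit of the replicative helicase, rose from 312, 323 and 314 CPM to 399, 408 and 404 CPM, and Uhrf1, which maintains DNA methylation, rose by 0.30. In the list of 27 G2 and mitosis genes 10 rose and 17 did not pass, with 7 between. The share between was near the 25.3% over all genes tested. Mki67, the proliferation marker Ki-67, rose from 622, 618 and 636 CPM to 857, 862 and 868 CPM, against 1195 CPM in young and 367 CPM in uncultured aged libraries (log2 change 0.46, adjusted p = 4e-18). Ccnb1, Cdk1 and Plk1, which drive entry into mitosis, did not pass.

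Among CDK inhibitors and p53 targets, 11 of 20 fell and 3 rose, with 14 between. Cdkn1b, the inhibitor p27, rose from 49.4, 47 and 49.9 CPM to 76.6, 74.1 and 79.7 CPM, against 124 CPM in young libraries, while Cdkn1a, the inhibitor p21, fell by 0.28. Bax, a cell death effector, fell by 0.54 and Ccng1, a p53 target, by 0.37, and Mdm2 did not pass (adjusted p = 0.24).

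In stress and other metabolic lists the changes were mostly small. Genes of the ATF4 amino acid response fell in 16 of 24 cases and rose in 2, with 14 between. Slc7a11, the cystine transporter, fell by 0.58 and Trib3, a pseudokinase, by 0.78, while Ddit4, an mTORC1 inhibitor, rose by 0.46 and Atf4 itself did not pass. NRF2 targets fell in 12 of 19 cases and rose in 4, with 15 between. Hmox1, haem oxygenase 1, fell from 74.1, 72.1 and 76.4 CPM to 46.6, 44.5 and 43.3 CPM, against 10.9 CPM in young libraries, and its groups did not overlap. Prdx1, a peroxiredoxin, fell by 0.47 and Gstm1, a glutathione transferase, rose by 0.30.

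Endoplasmic reticulum chaperone and unfolded protein genes rose in 8 of 20 cases and fell in 6, with 10 between vehicle and young. Hspa5, the chaperone BiP, rose from 1077, 1087 and 1072 CPM to 1396, 1384 and 1371 CPM, against 2006 CPM in young libraries. Dnajb9, its co-chaperone, rose by 0.64, whereas Manf, a secreted protein of the same response, fell by 0.23. The count of members of that list that rose was 5 without vehicle replicate 3 and 5 without uridine replicate 3, and the count that fell was 3 without uridine replicate 2. Heat shock genes were divided, with 5 of 17 higher, 5 lower and 9 between, against 20.0%, 18.1% and 25.3% over all genes tested. Their sum with uridine, 8774 to 8841 CPM, lay below both the 8917 to 8935 CPM of vehicle and the 9032 to 9056 CPM of young libraries. Hspa1a and Hspa1b, the inducible Hsp70 genes, rose by 2.40 and 1.46 and are near-identical copies whose reads the counting may have split. Glycolysis genes fell in 8 of 23 cases and rose in 2, or in 1 without vehicle replicate 2, with 10 between vehicle and young. The share that rose was below the 20.0% over all genes tested, and the share that fell was above the 18.1%. Aldoa, the aldolase, and Pkm, pyruvate kinase, fell by 0.37 and 0.17, and Ldhb rose by 0.68. Purine synthesis genes rose in 5 of 14 cases and fell in 1, with 4 between. Their share between was near the 25.3% over all genes tested, and the share that fell was below the 18.1%. Impdh1, an enzyme of guanine nucleotide synthesis, rose from 59.3, 61.6 and 59.2 CPM to 102, 99.4 and 101 CPM, at a position of 0.375. Ribosome biogenesis genes rose in 6 of 27 cases and fell in 3, with 3 between vehicle and young. The shares that rose and fell were near or below the 20.0% and 18.1% over all genes tested. Fbl, the methyltransferase fibrillarin, rose by 0.19.

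Cytosolic ribosomal protein genes were placed differently from nearly all other lists. Of 82 tested 70 fell and 12 did not pass, the median log2 change was -0.18, 1 lay between vehicle and young, and 66 lay below vehicle, young and uncultured aged libraries alike. Their summed level was 48300 to 48780 CPM with vehicle, 43180 to 44150 CPM with uridine, 48710 to 51170 CPM in young and 72000 to 74360 CPM in uncultured aged libraries. Rpl28, on chromosome 7 from 4792874 to 4795066 (plus strand), was at 611, 618 and 631 CPM with vehicle and at 499, 495 and 487 CPM with uridine, against 575 CPM ± 12.1 (SD, n = 3) in young and 846 CPM in uncultured aged libraries (log2 change -0.33, adjusted p = 3.9e-14). Rplp0, a protein of the ribosomal stalk, went from 2085, 2024 and 2061 CPM to 1970, 1947 and 1956 CPM, a log2 change of -0.07. In both genes the uridine libraries lay below the other 9. Ribosomal protein genes have many processed pseudogenes, with which reads may be shared. Nuclear genes of oxidative phosphorylation fell in 37 of 80 cases and rose in 4 (2 without vehicle replicate 2), with 10 below all 3 other groups and 4 between. Cox6b1, a subunit of cytochrome oxidase, went from 95, 91.7 and 100 CPM to 74.7, 74.5 and 74.4 CPM, below the young mean of 82.3 CPM. Atp5e, a small subunit of ATP synthase, fell by 0.33, and Uqcrc2, of complex III, rose by 0.15. The mitochondrial genome took 1.603% to 1.611% of the counts with vehicle and 1.558% to 1.579% with uridine.

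Over all genes, 114 (0.684%) lay above all 3 other groups with uridine and 172 (1.03%) lay below them. Those above had a median longest transcript of 7943 nucleotides, against 2937 over all genes tested, and 105 of them were protein-coding. Vps13c, a lipid transfer protein, went from 130, 134 and 133 CPM to 172, 168 and 172 CPM, against 139 CPM in young and 51.5 CPM in uncultured aged libraries. Zfp871, a zinc finger gene, went from 40.3, 41.8 and 39.4 CPM to 61.3, 67.3 and 63.3 CPM, against 52.3 CPM in young libraries. Atm, the kinase of DNA breaks, rose from 81.4, 83.1 and 76.7 CPM to 96.3, 98.6 and 95 CPM, against 81 CPM. The uridine libraries of these 3 genes stood above the other 9. Those below had a median longest transcript of 1139.5 nucleotides, and 66 of them were cytosolic ribosomal protein genes, 21 immunoglobulin genes and 10 pseudogenes. Umad1 and the ribosomal protein gene Rps21 fell by 0.56 and 0.33 and were among them.

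Transcript length moved with these placements across the range. In protein-coding genes with at least 5 CPM other than ribosomal protein genes, split into 5 groups of near equal size by the longest annotated transcript, the median log2 change with uridine was -0.13 in the shortest group (243 to 2085 nucleotides), -0.08, -0.03 and 0.01 in the next 3, and 0.10 in the longest (5397 to 123179 nucleotides). Against the level set between vehicle and young, the medians were -0.09, -0.05, -0.01, 0.02 and 0.08. Young against vehicle gave -0.11, -0.08, -0.04, -0.02 and 0.05, with the vehicle libraries shared. No RNA integrity value is given in the sources used here, and the part of RNA quality or library preparation in the placement of the ribosomal and the long genes was not tested.

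**Figure D5:**
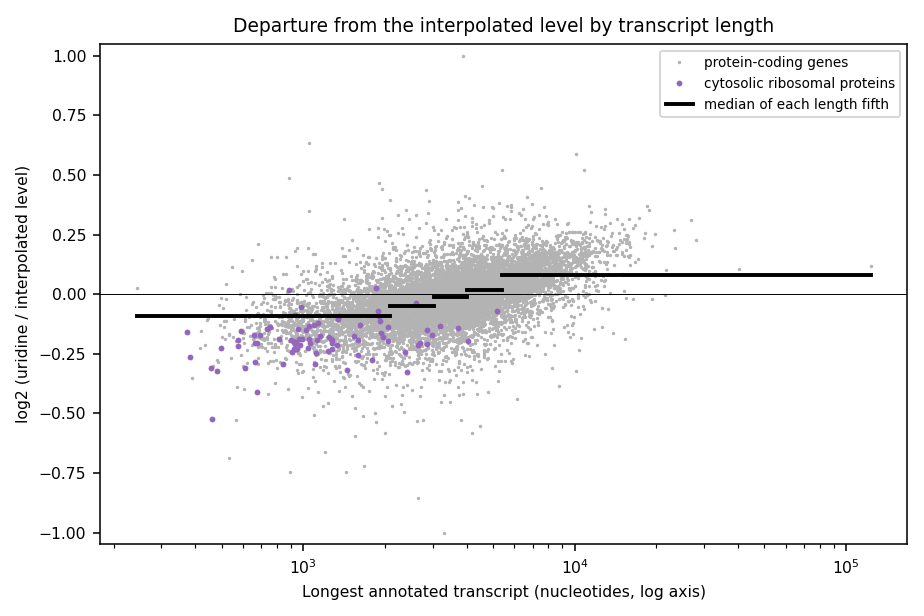
Log2 ratio of the uridine mean to the level set between vehicle and young, against the length of the longest annotated transcript in nucleotides on a log axis, with 1 point for each of 10266 genes and ribosomal protein genes marked. The ribosomal protein genes lie among the short transcripts with 78 of 80 below 0, and the medians of the 5 length groups (black lines) rise with length.

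By size, the genes that fell most with uridine were of mixed kinds. Anpep, aminopeptidase N, went from 96, 105 and 97 CPM to 47.5, 43.5 and 47.5 CPM, against 2.94 CPM in young libraries (log2 change -1.10, adjusted p = 1.7e-16), and no library overlapped between groups. Slc6a12, a betaine transporter, fell by 1.37, Gzmc, a granzyme, by 1.33, Igfbp7, a secreted growth factor-binding protein, by 1.20, and Mmp12, the macrophage elastase, by 1.15. Il1a, the cytokine interleukin-1 alpha, fell by 1.10. Mmp9, a neutrophil gelatinase, rose by 6.70, Sparc, a matrix protein of bone, by 6.49, and Col1a2, the partner chain of type I collagen, by 5.12, and these 3 belong to the lineage lists given above.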

How the data were processed

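Messenger RNA was captured from Trizol extracts with poly-T beads and read from both ends on a NovaSeq machine, according to the protocols per the labels. HISAT2 2.0.5 and mm10 are named in the submitters' processing notes, and neither the counting program nor its strand setting is given in the sources used here. Antisense genes that overlap can therefore share reads. The authors deposited raw counts for 54532 Ensembl gene identifiers in 12 libraries, and 54495 were matched to GENCODE M21 (GRCm38) for symbols, positions and transcript lengths, the 37 others holding at most 0.00589% of a library. The number of sample columns left unused was 0. Library totals were 16785065 to 19025802 counts.

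All 12 libraries were fitted with edgeR 4.0.16 in R 4.3.3 (filterByExpr, TMM, quasi-likelihood, 1 mean per group), which left 16675 genes, and p-values were Benjamini-Hochberg adjusted over them at a threshold of 0.05. The procedure was checked on simulated counts. Counting intervals are exact at 95% and cover counting error only, and a count of 0 was replaced by a floor of 3 counts over the group where a fold is given as a bound. Counts of replicates of a group differed by more than sampling noise, with a chi-square of 2.27 to 3.94 per degree of freedom. Deviations from the group mean of same-numbered vehicle and uridine libraries correlated at -0.0397 to -0.0167, and those of differently numbered libraries at 0.0035 to 0.0284. These values cannot decide whether replicate numbers pair the libraries, because each mean holds only 3 libraries and the replicates may be technical. DESeq2 1.42.0, limma 3.58.1, other scalings and filters, a replicate block and leaving out each library were tried as alternatives.

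The members and lists were chosen with earlier results of these data known. Genes were named by rule: the 10 protein-coding genes with the greatest log2 change in each direction among those passing with at least 5 CPM and no overlap; for each list the 4 members with the smallest p in each direction and the 2 most abundant; the 10 genes in each direction farthest outside all other groups; members of the uridine and pyrimidine, Fos and Jun, and stem cell lists; and Kit, Cd34, Ly6a, Flt3 and Ptprc. Chosen in addition after values were seen were Aldh1a1, Atf4, Ccn1, Ccnb1, Cdk1, Clu, Csrnp1, Dcn, Egr2, Egr3, Gadd45g, Gata1, Gbp2, Gbp8, Ibsp, Ifit1, Klf1, Klf4, Ly6g, Maff, Mdm2, Nlrc5, Nr4a3, Plk1, Plk2, Ppp1r15a, Rhag, Selp, Slamf1, Spry1, Spry2, Stat2, Trib3, Vpreb1, Vpreb2 and Zfp36l1. Some genes of these lists are not reported here.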

Additional observations from a re-analysis of the deposited data

How the results depend on the processing

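The counts of 3342 genes higher and 3018 lower became 2956 and 3211 with DESeq2 (1 gene without an adjusted p), 3303 and 3219 with limma voom, 3067 and 3412 with DESeq2 size factors in edgeR and 3471 and 2864 with upper quartile factors. The share of calls that were higher was 52.5%, 47.9% with DESeq2, 47.3% with DESeq2 size factors and 54.8% with upper quartile factors. Against the control set between vehicle and young the counts were 529 higher and 739 lower, of which 442 and 631 were among the genes called against vehicle; moving the control toward young is what this alternative does by construction. With the replicate number as a block the counts were 3289 and 2961, and the replicate block moved no count, over all genes or in a list, by more than 1.5 times. Genes outside all other groups numbered 286, and 171 at adjusted p under 0.01, a threshold that can only lower the count. Leaving out each library in turn gave 2880 to 3471 genes higher, 2536 to 3162 lower, 3532 to 4371 between vehicle and young, 219 to 313 outside, and a median position of 0.335 to 0.3435. The median position of 0.3398 was 0.3283 with DESeq2 size factors, 0.3255 with upper quartile factors, 0.3474 for genes at least 4 times higher in young, 0.3334 with list genes included, 0.4192 for genes at least 10 times lower in young and 0.6874 on the log2 scale, which differs by construction. Endoplasmic reticulum genes that rose numbered 5 in place of 8 with DESeq2 and with DESeq2 size factors, and nuclear oxidative phosphorylation genes that rose numbered 2 in place of 4 with those size factors. Kit passed under 5 alternatives, among them limma voom (adjusted p = 0.0379). Under the alternatives run on single genes, which leave out the control set between vehicle and young, 205 genes were checked. Of those that had risen or fallen, 0 changed direction, and direction was not compared for those that had not passed. Against that control 1 of the 7 Fos and Jun family genes was higher, 2 were lower and 4 did not pass by edgeR's test. The lower ones were Fos and Jun, which rose against vehicle, with log2 differences of -0.25 (adjusted p = 6.81e-10) and -0.12 (adjusted p = 2.31e-05). That control blends vehicle and young libraries at a position taken from these same data. Its spread is therefore not that of replicates, and these p-values only describe a departure from the set level. Depth limits the genes at 0 or a few counts in the vehicle libraries, whose folds are bounds or have wide intervals.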

Other observations

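Gene sets defined from the vehicle and uncultured libraries gave a further description of the placement. Genes whose young mean was at least 5 CPM and at least 10 times the vehicle mean, while the uncultured aged mean was at most 2 times the vehicle mean, numbered 11, among them S100a9, Lcn2, Fn1 and Col1a2. All 11 rose with uridine, with a median log2 change of 2.94. The reverse set, high in uncultured aged libraries and not in young, held 222 genes, 117 of them immunoglobulin genes, of which 12 rose, 74 fell and 136 did not pass. A set of 53 genes met the 10 times limit in both uncultured groups, among them Fosb, Jun and Pax5, and rose in all 53 cases. Over all genes tested 20.0% rose and 18.1% fell. These sets were chosen by levels in the vehicle libraries, which the comparison shares, and by the young levels used for the positions above. Their counts therefore follow in part from that choice and are descriptions of edgeR's calls with no test of their own.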
